A study of Homo sapiens with 12 samples.

Results

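The genes described here encode 4 core proteins of the Reelin pathway: RELN (the secreted ligand), LRP8 and VLDLR (its receptors) and DAB1 (the adaptor inside the receiving cell). They are 4 of the 58302 genes in the count files, found by Ensembl identifier, and all 4 are among the 13454 that averaged 20 counts or more per sample and entered the tests. They were chosen by their levels in these same samples, with earlier results known. Their values and differences are therefore given as a description, with no p-value.

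Reelin is a large glycoprotein that is secreted into the extracellular matrix, in the embryonic cortex mainly by Cajal-Retzius cells of the marginal zone and later by GABAergic interneurons. It binds LRP8 (also named ApoER2) and VLDLR, both lipoprotein receptors, and clustering of the receptors leads SRC-family kinases to phosphorylate DAB1 on tyrosine. Phosphorylated DAB1 recruits adaptors such as CRK and CRKL and is then degraded through CUL5, and the pathway is known for positioning migrating cortical neurons and, in mature neurons, for acting on glutamatergic synapses.

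RNA was sequenced in 12 samples, 2 in each of 6 groups, all derived from H1, a human embryonic stem cell (ESC) line. Wild-type (WT) cells were compared with H1-dKO cells, in which CRISPR/Cas9 had removed the catalytic JmjC region of the H3K27 demethylases UTX (KDM6A) and JMJD3 (KDM6B), the dKO line having been grown from selected clones. Neural progenitor cells (NPCs) were made from ESCs of both genotypes by inhibiting TGF-beta and BMP signalling, and were picked as rosettes and grown as spheres with bFGF and EGF. The groups are WT and dKO NPCs at passage 2, WT and dKO NPCs at passage 4, and WT-D28 and dKO-D28 cells, which had differentiated from NPCs for 28 days with GDNF, BDNF and cAMP. The labels name passage 4 alone, and passage 2 is taken from the study's methods. The labels do not say that samples of a group came from separate cultures, so the errors and p-values measure only the spread between these samples.

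Totals were 756942 to 1438807 counts per sample at passage 2, 3174410 to 4220037 at passage 4, 8813561 and 10601172 in WT-D28 and 4082248 and 5214431 in dKO-D28. A count of 3 corresponds to 3.85 CPM (counts scaled to a common library size by the TMM method) in the shallowest library and 0.298 CPM in the deepest, for counting error only. The dKO-D28 samples stood apart from each other, with a chi-square of 11.3 per degree of freedom between replicates against 1.57 to 2.72 in the other groups, so the day 28 differences of the pathway genes and the partner counts are also given with each of its samples left out. KDM6A, 1 of the targeted genes, had 27.3 to 39.1 CPM in dKO NPCs and 49.8 to 60.3 CPM in WT NPCs, but 31.9 and 58.4 CPM in the dKO-D28 samples against 43.7 and 48.4 CPM in WT-D28. KDM6B had 144 to 185 CPM in dKO and 115 to 202 CPM in WT samples. These counts cover whole genes and not the deleted region alone, so they do not check the deletion.

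RELN (ENSG00000189056) lies on the minus strand of hg38 chromosome 7 from 103471381 to 103989658, DAB1 (ENSG00000173406) on the minus strand of chromosome 1 from 56994778 to 58546734, LRP8 (ENSG00000157193) on the minus strand of chromosome 1 from 53242364 to 53328469, and VLDLR (ENSG00000147852) on the plus strand of chromosome 9 from 2621182 to 2660056, in the GENCODE v44 annotation. RELN overlaps SLC26A5-AS1, DAB1 overlaps OMA1 and DAB1-AS1, LRP8 overlaps LRP8-DT and VLDLR overlaps VLDLR-AS1. The library kit does not mark strand, so reads from the overlapping stretches of opposite strands cannot be told apart. DAB1-AS1 had 0 counts in each of the 12 samples and LRP8-DT a mean of 0.917 counts, whereas VLDLR-AS1 was counted in every group.

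The 250 bases before the RefSeq transcript start of the ligand and its receptors are shown because the ligand and the receptors took different courses across the groups. RefSeq sequences of build GRCh38.p14 are given 5′ to 3′ on the strand of the gene: RELN at chr7:103989659-103989908 (minus strand), LRP8 at chr1:53328071-53328320 (minus strand) and VLDLR at chr9:2621537-2621786 (plus strand). Capitals mark matches, on either strand, to the GC box GGGCGG, bound by SP1-type factors, and to AGGTGTG, a motif bound by T-box factors such as TBR1.
RELN: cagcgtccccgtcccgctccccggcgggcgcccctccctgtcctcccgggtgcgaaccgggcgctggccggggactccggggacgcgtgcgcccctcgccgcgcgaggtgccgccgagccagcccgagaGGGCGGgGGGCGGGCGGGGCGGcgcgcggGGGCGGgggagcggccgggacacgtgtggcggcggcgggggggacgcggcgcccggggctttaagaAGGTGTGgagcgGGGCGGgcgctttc
LRP8: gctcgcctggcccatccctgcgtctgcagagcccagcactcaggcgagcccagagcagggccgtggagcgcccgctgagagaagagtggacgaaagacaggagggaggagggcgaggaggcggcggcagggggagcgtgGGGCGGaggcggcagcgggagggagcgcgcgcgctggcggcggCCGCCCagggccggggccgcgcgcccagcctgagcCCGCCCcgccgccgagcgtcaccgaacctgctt
VLDLR: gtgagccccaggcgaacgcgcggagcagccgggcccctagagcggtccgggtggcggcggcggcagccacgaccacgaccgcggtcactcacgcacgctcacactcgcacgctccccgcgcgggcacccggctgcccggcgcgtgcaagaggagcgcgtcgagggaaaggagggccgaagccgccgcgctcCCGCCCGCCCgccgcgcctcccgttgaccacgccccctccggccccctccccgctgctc
The RELN window held 43 CpG dinucleotides, the VLDLR window 41 and the LRP8 window 31, against a median of 11 over 35116 RefSeq windows of that length. It held 6 GC boxes, some of which overlap each other, and 1 T-box motif whose first base lies at position -26 from the transcript start. The LRP8 window held 3 GC boxes and the VLDLR window 2, which overlap, and neither held AGGTGTG. Of all windows, 42.6% held GGGCGG and 3.84% held AGGTGTG. A match is a description of the letters and not a binding site. The RefSeq starts of LRP8 and VLDLR lie inside the GENCODE genes given above. DAB1 has 6 RefSeq start windows and none is shown.

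RELN, the ligand, had 237 and 201 CPM in the WT NPC samples at passage 2 and 194 and 178 CPM in the dKO NPC samples. The WT samples of passage 4 had 181 and 182 CPM, above the dKO samples with 114 and 121 CPM. At day 28 it had 10.1 and 8.44 CPM in WT-D28, which is 85 counts in each sample, and 313 and 263 CPM in dKO-D28. The WT-D28 samples were thus the lowest of the 12 and the dKO-D28 samples the highest, with all 8 NPC samples between them. In bulk RNA, fewer cells of a type and less RNA per cell cannot be told apart. The order of the group means was dKO-D28, WT NPCs at passage 2, dKO NPCs at passage 2, WT NPCs at passage 4, dKO NPCs at passage 4 and WT-D28. Of the neighbours in that order, dKO NPCs at passage 2 and WT NPCs at passage 4 overlapped, and the others did not.

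LRP8, the receptor also named ApoER2, stood at 96.3 and 106 CPM in the WT samples of passage 2 and at 98.2 and 108 CPM in the dKO samples. At passage 4 both WT samples had 190 CPM, and the dKO samples 31.8 and 33.1 CPM. At day 28 it had 213 and 204 CPM in WT-D28 and 67.7 and 45.6 CPM in dKO-D28. The groups overlapped at passage 2, while at passage 4 and at day 28 both WT samples lay above both dKO samples. From the highest mean, the order was WT-D28, WT NPCs at passage 4, both passage 2 groups, dKO-D28 and dKO NPCs at passage 4, and among neighbours only the 2 passage 2 groups overlapped.

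VLDLR, the other receptor, stood at 27 and 26.4 CPM in the WT samples of passage 2 and at 23.6 and 32.7 CPM in the dKO samples. The WT samples of passage 4 had 39.6 and 42.4 CPM, above the dKO samples with 21.4 and 20.8 CPM. At day 28 it had 82.5 and 84.4 CPM in WT-D28 and 32 and 25.7 CPM in dKO-D28. As for LRP8, WT-D28 was the highest group, followed by WT NPCs at passage 4. The dKO-D28 group and both passage 2 groups overlapped each other, and dKO NPCs at passage 4 lay below all others. VLDLR-AS1, which overlaps VLDLR, had 24.4 ± 2.48 CPM (SD, n = 2) in WT-D28, 6.31 ± 0.86 CPM in dKO-D28, 12.3 ± 3.41 CPM in WT and 4.96 ± 0.162 CPM in dKO NPCs at passage 4, and 7.79 ± 1.69 CPM in WT and 5.08 ± 3.25 CPM in dKO NPCs at passage 2. Its part in the VLDLR values was not tested.

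DAB1, the adaptor, stood at 42.4 and 34.5 CPM in the WT samples of passage 2 and at 38.4 and 41.1 CPM in the dKO samples. The WT samples of passage 4 had 97 and 105 CPM, above the dKO samples with 23.5 and 25.4 CPM. At day 28 it had 15.5 and 16.5 CPM in WT-D28 and 28.1 and 32.3 CPM in dKO-D28. WT NPCs at passage 4 were the highest group and WT-D28 the lowest, and between them came the overlapping passage 2 groups, dKO-D28 and dKO NPCs at passage 4. In NPCs at passage 4, DAB1 was thus higher in WT than in dKO, as were RELN and both receptors. At day 28 DAB1 was higher in dKO-D28 than in WT-D28, as was RELN and unlike the receptors.

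**Figure D1:**
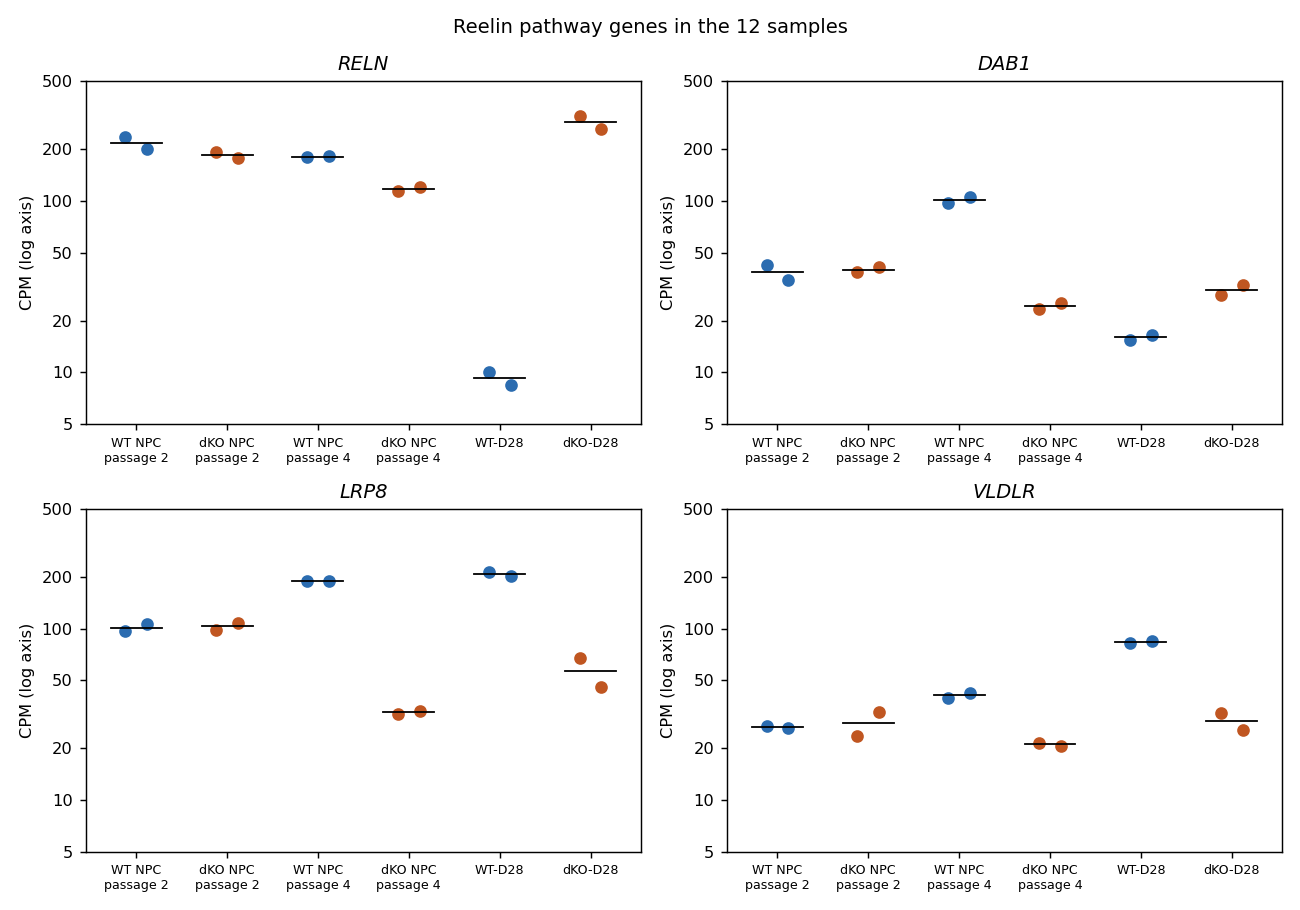
Level of RELN, DAB1, LRP8 and VLDLR in CPM (log axis) in each of the 12 samples, by group. Points are samples (blue WT, orange dKO) and lines are means of 2 samples. RELN is at 8.44 and 10.1 CPM in WT-D28 and at 263 and 313 CPM in dKO-D28, while LRP8 and VLDLR are highest in WT-D28.

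To compare levels between genes, CPM was divided by the exonic length of each gene in kilobases. In WT NPCs at passage 2, RELN had 6.19 ± 0.731, LRP8 5.15 ± 0.36, DAB1 5.09 ± 0.74 and VLDLR 1.62 ± 0.0242 CPM per kilobase (SD, n = 2), so VLDLR was the lowest and the other 3 genes lay within a similar range. In WT NPCs at passage 4, DAB1 led with 13.4 ± 0.707 CPM per kilobase, followed by LRP8 with 9.68 ± 0.0022, RELN with 5.13 ± 0.0211 and VLDLR with 2.48 ± 0.119. In WT-D28, LRP8 had 10.6 ± 0.311, VLDLR 5.06 ± 0.0807, DAB1 2.12 ± 0.0912 and RELN 0.261 ± 0.0324 CPM per kilobase, so both receptors lay above the ligand. In dKO-D28 the ligand was the highest of the 4 genes per kilobase, with 8.13 ± 1.01 for RELN against 4 ± 0.389 for DAB1, 2.88 ± 0.796 for LRP8 and 1.74 ± 0.27 for VLDLR. Dividing by the longest transcript in place of all exons raised the values by 1.42 to 2.41 times, most for RELN. In WT NPCs at passage 2, RELN then had 14.9, LRP8 9.42, DAB1 7.25 and VLDLR 2.9 CPM per kilobase. The similar range of RELN, LRP8 and DAB1 there thus depends on the length used.

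**Figure D2:**
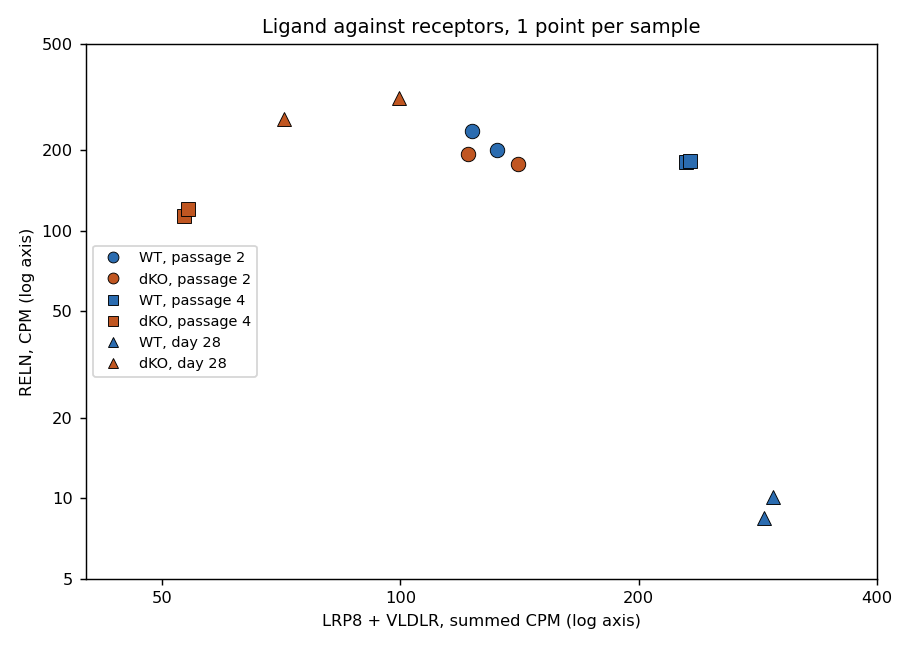
RELN in CPM against the summed CPM of LRP8 and VLDLR, both on log axes, with 1 point per sample (blue WT, orange dKO; circles passage 2, squares passage 4, triangles day 28). The WT-D28 samples lie at the lower right with RELN at 8.44 and 10.1 CPM, the dKO-D28 samples at the upper left with RELN at 263 and 313 CPM, and the passage 2 samples of both genotypes lie together.

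Differences between groups were read from 1 fit of edgeR over all samples, as log2 fold changes with their standard errors. The pathway genes are counted only by whether they differed by over 2-fold, beside the share of all tested genes that did, and nothing is read from that count because these comparisons chose them. Whether samples of 2 groups overlap, above and below, only describes 2 samples against 2. The share of all tested genes without overlap was not computed, so nothing is read from a lack of overlap. Any other gene was called where its p before adjustment was under 0.05 and its levels differed by over 2-fold. These thresholds follow the methods of the study. Comparisons that use the same samples, such as WT-D28 in the comparison of genotypes and in that of time points, are not independent of each other, and their values are set side by side.

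In NPCs at passage 2 the genotypes had closely similar levels of the pathway genes. The log2 fold change of dKO over WT was -0.23 ± 0.133 (SE) for RELN, 0.08 ± 0.197 for DAB1, 0.01 ± 0.174 for LRP8 and 0.09 ± 0.235 for VLDLR. Samples of the genotypes overlapped for DAB1, LRP8 and VLDLR, and for RELN both dKO samples lay below both WT samples. Of the 4 genes, 0 differed by over 2-fold, beside 6.76% of all tested genes (3.94% higher and 2.82% lower in dKO). Differences of the size of these standard errors were not detectable at this depth.

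At passage 4 each of the 4 genes was lower in dKO than in WT NPCs, with no overlap between samples. LRP8 differed most, by 5.84-fold (log2 fold change -2.55 ± 0.154), and DAB1 by 4.11-fold (-2.04 ± 0.145). VLDLR was 1.94-fold lower (-0.95 ± 0.166) and RELN 1.54-fold lower (-0.62 ± 0.121). LRP8 and DAB1 were thus lower by over 2-fold, that is 2 of 4 genes, beside 22.8% of all tested genes (11.3% higher and 11.4% lower). With GC content and exonic length evened out across the samples, RELN stood at -0.34 and VLDLR at -0.67, whereas LRP8 stood at -2.45 and DAB1 at -1.89.

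At day 28 the ligand and its receptors differed between genotypes in opposite directions. RELN was 31.2-fold higher in dKO-D28 than in WT-D28 (log2 fold change 4.96 ± 0.146), and LRP8 (-1.89 ± 0.142) and VLDLR (-1.54 ± 0.147) were lower. DAB1 was higher by 0.92 ± 0.148 on the log2 scale, just under the threshold of 2-fold. Samples of the genotypes did not overlap for any of the 4 genes. Of them 1 was higher and 2 were lower by over 2-fold, beside 24.4% of all tested genes (12.6% higher and 11.8% lower). Without dKO-D28 sample 1 the log2 fold changes were 4.85 for RELN, 1.03 for DAB1, -2.18 for LRP8 and -1.68 for VLDLR, and without sample 2 they were 5.1, 0.82, -1.61 and -1.37, respectively, so DAB1 passed 2-fold without sample 1.

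**Figure D3:**
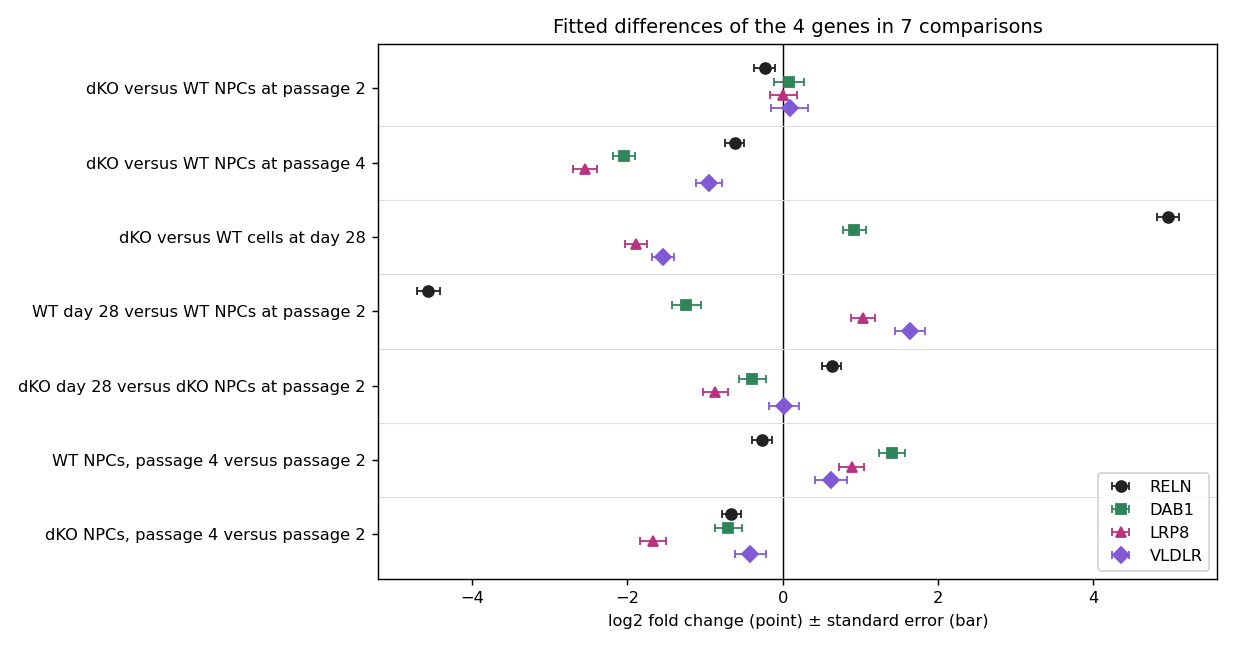
Fitted log2 fold change (horizontal axis) of RELN, DAB1, LRP8 and VLDLR in 7 comparisons of 2 samples against 2, with bars for the standard error. The 4 genes lie near 0 at passage 2, all lie below 0 at passage 4, and at day 28 RELN stands at 4.96 while LRP8 and VLDLR stand at -1.89 and -1.54.

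Differentiation of WT NPCs went with much less RELN RNA and more receptor RNA. Between WT NPCs at passage 2 and WT-D28, RELN was 23.6-fold lower (log2 fold change -4.56 ± 0.153) and DAB1 was lower by -1.24 ± 0.185 on the log2 scale, whereas LRP8 (1.03 ± 0.156) and VLDLR (1.64 ± 0.189) were higher. All 4 genes differed by over 2-fold, beside 25.4% of all tested genes (13.6% higher and 11.8% lower). The LRP8 value lies at the threshold, with 0.83 with GC content and length evened out and 0.97 without WT NPC sample 1.

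The same interval in dKO cells showed smaller differences. Between dKO NPCs at passage 2 and dKO-D28, RELN was higher by 0.63 ± 0.124 on the log2 scale, DAB1 was lower (-0.39 ± 0.169), LRP8 was lower (-0.87 ± 0.16) and VLDLR overlapped (0.02 ± 0.193). Of the 4 genes, 0 differed by over 2-fold, beside 8.29% of all tested genes (4.76% higher and 3.53% lower), although LRP8 passed 2-fold at -1.18 without dKO-D28 sample 1 and stood at -0.6 without sample 2. The difference of the dKO and WT values was 5.19 ± 0.196 for RELN, 0.85 ± 0.247 for DAB1, -1.9 ± 0.223 for LRP8 and -1.62 ± 0.276 for VLDLR. Of the 4 genes 3 exceeded 2-fold in this contrast, beside 27% of all tested genes (13.4% higher and 13.6% lower). Without dKO-D28 sample 1 it was 5.07, 0.95, -2.18 and -1.77 for RELN, DAB1, LRP8 and VLDLR, and without sample 2 it was 5.32, 0.74, -1.62 and -1.46.

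Between passages the receptors and the adaptor took opposite directions in the genotypes. From passage 2 to passage 4, WT NPCs had a log2 fold change of 1.41 ± 0.169 for DAB1, 0.89 ± 0.159 for LRP8, 0.62 ± 0.205 for VLDLR and -0.27 for RELN. The dKO NPCs had -0.7 ± 0.174 for DAB1, -1.67 ± 0.169 for LRP8, -0.42 ± 0.2 for VLDLR and -0.66 ± 0.127 for RELN. RELN was thus lower at passage 4 in both genotypes, while the other 3 genes were higher in WT and lower in dKO NPCs, without overlap. In WT 1 gene (DAB1) differed by over 2-fold, beside 21.1% of all tested genes (11.1% higher and 10% lower), and in dKO 1 gene (LRP8), beside 11.1% (5.37% higher and 5.77% lower). The difference of the dKO and WT values was -2.12 ± 0.244 for DAB1, -2.56 ± 0.232 for LRP8, -1.04 ± 0.287 for VLDLR and -0.39 ± 0.18 for RELN. In this contrast 3 of the 4 genes exceeded 2-fold, beside 23.6% of all tested genes (11.6% higher and 12% lower).

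Over the 12 samples, the log2 CPM of LRP8 and VLDLR ran together (Pearson's r = 0.801, Spearman's rho = 0.895), and that of RELN and VLDLR ran in opposite directions by Pearson's r (-0.823) but much less by rank (rho = -0.294). RELN and DAB1 had r = 0.614 (rho = 0.49), RELN and LRP8 r = -0.457 (rho = -0.392), DAB1 and LRP8 r = 0.261 (rho = 0.0909) and DAB1 and VLDLR r = -0.233 (rho = 0.049). The points fall into 6 groups of 2 and share libraries, so these values describe the groups.

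Among 13453 other tested genes, those whose log2 CPM ran most like a pathway gene over the 12 samples were ranked by Pearson's r. For RELN they were GLI3, a transcription factor of the Hedgehog pathway (r = 0.988, rho = 0.972), CDCA7L, a MYC-interacting nuclear protein (r = 0.98, rho = 0.692), and KIF11, a mitotic kinesin (r = 0.98, rho = 0.72). For LRP8 they were NRCAM, a neuronal cell adhesion molecule (r = 0.984), ADCYAP1R1, the receptor of the neuropeptide PACAP (r = 0.983), and DIPK1A (r = 0.983). VLDLR ran most like PCDHAC2, a clustered protocadherin (r = 0.99), BLCAP (r = 0.988) and FBXO41, an F-box protein (r = 0.981), and DAB1 most like ARL6IP1 (r = 0.971), CTTNBP2, a cortactin-binding protein (r = 0.961), and PRDM8, a PR domain factor (r = 0.96). These places depend on the measure. By Spearman's rho CTTNBP2 (0.811) took place 148 for DAB1, and ADCYAP1R1 and DIPK1A (0.93 each) took place 45 for LRP8.

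Beside the pathway genes, 76 genes with a known place around them were listed in 5 groups by role, of which 68 could be tested. Of the 68, 6 were called at passage 2 (5 higher and 1 lower in dKO), 23 at passage 4 (10 higher, 13 lower) and 27 at day 28 (12 higher, 15 lower), that is 8.82%, 33.8% and 39.7% beside 4.42%, 22.3% and 24.2% of all tested genes. These shares of all tested genes also stand beside the counts of each list below. Their median log2 fold changes were 0.1, -0.29 and -0.11, beside medians of 0, 0.02 and 0 over all tested genes. At passage 2 the count depended on single libraries: 3 genes were called without WT NPC sample 1 and 4 without dKO NPC sample 2. At day 28, 28 were called without dKO-D28 sample 1 and 26 without sample 2. The partners called at day 28 that were checked in this way kept a difference of over 2-fold in both cases. ARC stood at -6.41 without sample 1 and -2.78 without sample 2, and CDK5R2 at -3.7 and -2.58. The day 28 values of ADAMTS3, MYLIP, LRP2 and GRIN1, named below, were not checked in this way.

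Genes for other ligands of the Reelin receptors and for the proteases that cleave Reelin formed the list with the highest share of calls, with 4 of 12 tested genes called at passage 2, 8 at passage 4 and 10 at day 28. Thrombospondin-1 (THBS1), a further ligand of LRP8 and VLDLR, was higher in dKO throughout, with 48.8 and 106 CPM in the WT samples of passage 2 against 216 and 255 CPM in the dKO samples (log2 fold change 1.53 ± 0.218, adjusted p = 0.0025). It had 18.8 and 16.2 CPM in WT and 115 CPM in each dKO sample at passage 4 (2.73 ± 0.226, adjusted p = 3.06e-07), and 15.4 and 15.2 CPM in WT-D28 against 102 and 103 CPM in dKO-D28 (2.74 ± 0.204, adjusted p = 7.12e-08). These and the following adjusted p-values come from the quasi-likelihood F-test of edgeR, with Benjamini-Hochberg correction across all tested genes. APOE, the lipoprotein ligand of this receptor family, was higher in dKO at passage 4 (10.3 ± 2.3 CPM in WT and 179 ± 21.8 CPM in dKO, SD, n = 2, adjusted p = 2.65e-06) and at day 28 (25.9 ± 0.0782 and 87.5 ± 38.3 CPM, adjusted p = 0.000245). At passage 2 it was called (1.56 ± 0.424) but had an adjusted p of 0.0968. Clusterin (CLU), which also binds both Reelin receptors, was lower in dKO, with 960 ± 20 CPM in WT and 177 ± 14.4 CPM in dKO NPCs at passage 4 (-2.43 ± 0.113, adjusted p = 1.33e-10).

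The proteases differed in direction. ADAMTS2, a Reelin-cleaving metalloprotease, had 1.2 ± 0.149 CPM in WT-D28 and 20 ± 0.0592 CPM in dKO-D28 (log2 fold change 4.04 ± 0.289, adjusted p = 9.17e-09), and it fell by 3.13 on the log2 scale from WT NPCs to WT-D28 (adjusted p = 1.28e-05). ADAMTS3, the related enzyme, was lower in dKO at passage 4 (-1.72 ± 0.304, adjusted p = 0.000807) and at day 28 (-2.08 ± 0.364, adjusted p = 0.000609). PLAT (tissue plasminogen activator), which can cleave Reelin, had 1.63 ± 0.637 CPM in WT-D28 and 12.8 ± 1.45 CPM in dKO-D28 (2.92 ± 0.318, adjusted p = 1.07e-06). At passage 2 PLAT was called (1.09 ± 0.355, adjusted p = 0.126) but stood at 0.68 without WT NPC sample 1 and 0.83 without dKO NPC sample 2. MYLIP, the ubiquitin ligase also named IDOL that degrades the VLDLR and LRP8 proteins, was higher in dKO at passage 4 (1.7 ± 0.269, adjusted p = 7.49e-05) and at day 28 (2.32 ± 0.233, adjusted p = 4.23e-07). Receptor protein was not measured here, and a link between MYLIP and the receptors' values was not tested.

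In the list of other lipoprotein receptors and DAB2, 1, 3 and 5 of 9 genes were called at passage 2, passage 4 and day 28. LRP4, the agrin receptor, ran like RELN at day 28, with 3.91 and 3.87 CPM in WT-D28 against 68 and 101 CPM in dKO-D28 (log2 fold change 4.44 ± 0.21, adjusted p = 1.49e-10), but had 231 ± 4.11 CPM in WT and 173 ± 8.66 CPM in dKO NPCs at passage 4. LRP2 (megalin) was higher in dKO at passage 4 (1.62 ± 0.224, adjusted p = 5.39e-05) and day 28 (1.57 ± 0.184, adjusted p = 8.55e-06), and LRP1B was lower in both (-2.08 ± 0.212 and -1.82 ± 0.211). DAB2, an endocytic adaptor that binds the same receptor tails as DAB1, was higher in dKO at passage 4 (2.87 ± 0.527, adjusted p = 0.00108) and day 28 (2.24 ± 0.504, adjusted p = 0.00333). At passage 2 the WT samples of DAB2 had 3.85 and 30.8 CPM, the first from 3 counts, so the value of 1.52 ± 0.498 (adjusted p = 0.163) fell to 0.9 without WT NPC sample 1. Its fall from WT NPCs to WT-D28 (-2.97 ± 0.607) was likewise -0.6 and not called without WT NPC sample 2. LRP1, a large endocytic receptor, was not called in the 3 comparisons of genotypes, with -0.73 ± 0.0976 as its largest value, at day 28.

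The kinases, adaptors and degradation factors that act on DAB1 held few calls, with 0 of 21 tested genes at passage 2, 1 at passage 4 and 1 at day 28. The gene called at passage 4 was FYN, a SRC-family kinase of DAB1, with 385 and 398 CPM in the WT samples against 138 and 147 CPM in the dKO samples (log2 fold change -1.45 ± 0.108, adjusted p = 2.02e-08). At day 28 FYN stood at -0.78 ± 0.106. The gene called at day 28 was SRC, with 197 ± 3.47 CPM in WT-D28 and 91 ± 3.2 CPM in dKO-D28 (-1.11 ± 0.102, adjusted p = 1.62e-07), which was -0.9 and no longer called with GC content and length evened out. YES1, the third of these kinases, had the opposite sign at day 28 (0.84 ± 0.108). The adaptors CRK (0.12 ± 0.272 at passage 4 and -0.1 ± 0.267 at day 28) and CRKL (-0.27 ± 0.114 and 0.16 ± 0.111) and the degradation factor CUL5 (0.22 ± 0.124 and 0.12 ± 0.117) were not called. SOCS7, which leads CUL5 to DAB1, was under the count minimum with 1.09 to 4.56 CPM as group means.

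In the list of cytoskeleton, adhesion and migration genes, 0, 7 and 5 of 17 tested genes were called at passage 2, passage 4 and day 28. The share at day 28 (29.4%) was near that of all tested genes (24.2%). CDK5R1 (p35), the neuronal activator of CDK5, a kinase that acts beside Reelin in neuronal migration, was lower in dKO at passage 4 (267 ± 10.3 CPM in WT and 38.1 ± 0.0769 CPM in dKO, log2 fold change -2.81 ± 0.201, adjusted p = 1.05e-07) and at day 28 (-2.33 ± 0.195, adjusted p = 3.46e-07). CDK5 itself was lower at day 28 (-1.21 ± 0.197, adjusted p = 7.42e-05), as was CDK5R2, its p39 activator (-3.09 ± 0.304, adjusted p = 3.37e-07). Doublecortin (DCX), a microtubule protein of migrating neurons, was lower at passage 4 (-4 ± 0.281, adjusted p = 3.11e-06) and day 28 (-2.6 ± 0.262, adjusted p = 2.78e-05). The opposite direction was seen in ITGA5, the fibronectin receptor subunit, with 1.42 and 2.18 CPM in WT-D28 against 37.7 and 44.3 CPM in dKO-D28 (4.47 ± 0.232, adjusted p = 3.31e-10). PAFAH1B1 (LIS1), a dynein regulator, was not called (-0.75 ± 0.125 at passage 4 and -0.72 ± 0.123 at day 28). NDE1 had 0 counts in every sample and MAPT (tau) a mean of 0.25 counts over the 12 samples. The annotation release and strand setting of the counting are not given, so these counts do not show that the RNA of either gene was absent.

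Synaptic partners of the pathway were lower in dKO wherever they were called: 1 of 9 genes at passage 2, 4 at passage 4 and 6 at day 28. GRIN2B, an NMDA receptor subunit whose phosphorylation Reelin increases, had 126 and 145 CPM in the WT samples of passage 4 against 3.46 and 4.11 CPM in the dKO samples (log2 fold change -5.15 ± 0.192, adjusted p = 1.59e-11). At day 28 it had 270 and 245 CPM in WT-D28, but 1.19 and 0.76 CPM in dKO-D28, from 5 and 4 counts. GRIN1, the obligate NMDA receptor subunit, had -2.99 ± 0.323 at passage 4 (adjusted p = 1.33e-06) and -3.65 ± 0.325 at day 28 (adjusted p = 1.1e-07). CAMK2A, the postsynaptic kinase, had 102 ± 1.77 CPM in WT-D28 and 5.45 ± 0.723 CPM in dKO-D28 (-4.23 ± 0.175, adjusted p = 2.96e-11), and ARC, an activity-regulated gene, 150 ± 0.698 and 11.7 ± 14.1 CPM, the latter from samples with 21.7 and 1.71 CPM (-3.76 ± 0.664, adjusted p = 0.00265). GRIN2A was lower at passage 4 (-3.65 ± 0.329, adjusted p = 1.84e-07). Its call at passage 2 (-1.16 ± 0.5, adjusted p = 0.269) was lost without any 1 of WT NPC sample 1, WT NPC sample 2 and dKO NPC sample 2 (log2 fold changes of -1.15, -1.18 and -0.58).

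**Figure D4:**
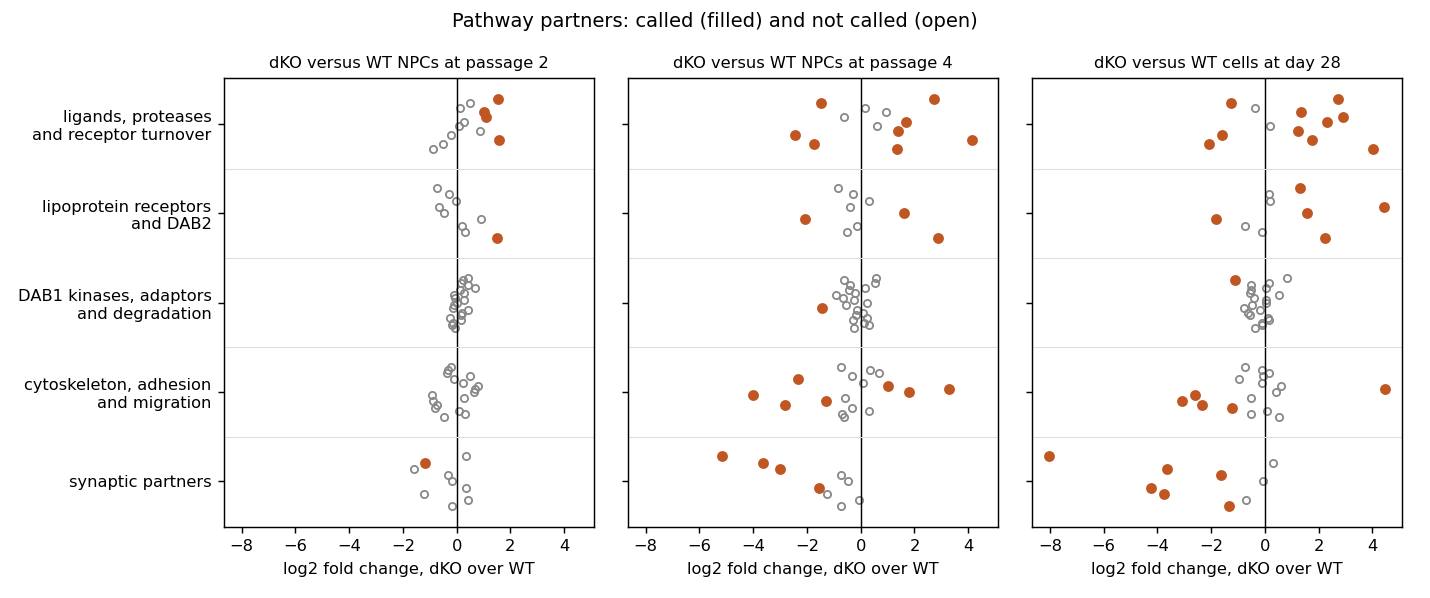
Log2 fold change of dKO over WT (horizontal axis) for the 68 tested partner genes by role list, in 3 comparisons of 2 samples against 2. Filled points passed an unadjusted p below 0.05 and 2-fold, and open points did not. Called partners number 6 at passage 2, 23 at passage 4 and 27 at day 28, with 1 or 0 per comparison among the kinases, adaptors and degradation factors of DAB1.

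During differentiation of WT NPCs to WT-D28, 23 of the 68 partners were called (14 higher and 9 lower, 33.8% beside 24.4% of all tested genes), 8 of them among the 9 synaptic partners (7 higher and 1 lower). In dKO cells 10 were called (3 higher, 7 lower, 14.7% beside 7.14%), 12 without dKO-D28 sample 1 and 13 without sample 2. Synaptic genes that rose in WT included CAMK2A (log2 fold change 3.38 ± 0.216, adjusted p = 7.38e-09) and ARC (3.07 ± 0.795, adjusted p = 0.0182), and GRIN2B went from 1 and 2 counts in the WT NPC samples to 2280 and 2469 counts in WT-D28. The synaptic gene that fell was GRIN2A, from 8.89 ± 0.133 to 1.51 ± 0.0351 CPM (-2.53 ± 0.443, adjusted p = 0.000228). In dKO cells CAMK2A fell by 1.21 on the log2 scale (adjusted p = 0.00753). SRC rose in WT (1.21 ± 0.12, adjusted p = 7.38e-07), as did LRP1 (1.18 ± 0.103, adjusted p = 2.08e-07), which was 0.86 and no longer called with GC content and length evened out. From passage 2 to passage 4, 21 partners were called in WT (13 higher, 8 lower, 30.9% beside 19.8% of all tested genes) and 10 in dKO NPCs (2 higher, 8 lower, 14.7% beside 9.83%). The difference between genotypes was called for 23 partners in differentiation (33.8% beside 23.2%) and for 19 in passaging (27.9% beside 19.3%).

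Marker lists were summed for cell types that the cultures could hold. Neuronal markers (11 genes, led by MAP2, STMN2 and INA) summed to 4050 and 4060 CPM in WT-D28 and 4130 and 4510 CPM in WT NPCs at passage 4, the groups with the highest LRP8 and VLDLR, and to 715 to 1460 CPM in the other 8 samples. Among those 8 samples LRP8 had 96.3 CPM in WT NPC sample 1 and 67.7 CPM in dKO-D28 sample 1, at the same sum of 1460 CPM. In dKO-D28 sample 2 it had 45.6 CPM at a sum of 715 CPM. The dKO NPCs at passage 4 had 31.8 and 33.1 CPM of LRP8 at sums of 1220 and 1240 CPM. Of the 10 tested neuronal markers, 8 were called lower and 1 higher in dKO at passage 4, beside 22.3% of all tested genes. At day 28, 8 were called lower and 0 higher, beside 24.2%. NEFM (92.1 ± 4.63 CPM in WT and 224 ± 0.516 CPM in dKO, SD, n = 2) and NEFL (66.5 ± 3.96 and 144 ± 2.45 CPM) had higher means in dKO at passage 4. Astrocyte markers (8 genes, led by SLC1A3) summed to 2000 and 2210 CPM in WT NPCs at passage 4 and 413 and 415 CPM in WT-D28, against at most 52.4 CPM in dKO samples. The part of either list in the pathway genes' values was not tested.

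The cell types known to secrete Reelin were also listed. GABAergic interneuron markers (11 genes, led by DLX1, GAD1 and DLX2) summed to 1010 and 985 CPM in WT-D28, where RELN was lowest, and to 68.2 and 38 CPM in dKO-D28, where RELN was highest. Of the 10 tested genes of this list 9 were called lower in dKO-D28 and 1 higher, beside 24.2% of all tested genes called in either direction. The 1 called higher was NDNF, a secreted factor found in a class of interneurons, with 0.947 and 1.09 CPM in WT-D28 against 8.11 and 9.88 CPM in dKO-D28 (log2 fold change 3.11 ± 0.439, adjusted p = 1.76e-05). Cajal-Retzius markers (10 genes) summed to 626 and 625 CPM in WT-D28 and 650 and 594 CPM in dKO-D28, most of it from ZIC1, with 434 and 447 CPM as group means. Within that list the transcription factors TBR1, LHX5 and EBF3 were higher in dKO-D28. TBR1 had 0.258 ± 0.197 CPM in WT-D28, from 1 and 4 counts, and 23.1 ± 7.74 CPM in dKO-D28 (SD, n = 2, adjusted p = 2.28e-09), and LHX5 1.57 ± 0.119 and 34.8 ± 2.96 CPM (adjusted p = 3.46e-09). The dKO-D28 samples had 28.6 and 17.7 CPM of TBR1 and 32.7 and 36.9 CPM of LHX5. EBF3 had 0.793 ± 0.284 and 13.9 ± 3.58 CPM (adjusted p = 5.35e-08). The calcium channel subunit CACNA2D2 was lower (log2 fold change -1.15 ± 0.123), and ZIC1 (0.05 ± 0.229) and CALB2 (-0.9 ± 0.486) were not called. TP73, a defining marker of these cells, was under the count minimum with 3.05 ± 0.378 CPM in WT-D28 and 8.32 ± 5.7 CPM in dKO-D28. EBF2 (0 and 7.43 ± 1.64 CPM), NHLH2 (0.0592 ± 0.0837 and 3.71 ± 1.49 CPM) and LHX1 (0 CPM in both) were also under it. At passage 4, 5 of the 6 tested genes of this list were called, 3 higher and 2 lower in dKO, beside 22.3% of all tested genes. TBR1 had 254 ± 15.7 CPM in WT and 27.3 ± 4.11 CPM in dKO NPCs, opposite to day 28, and CALB2 29.5 ± 7.27 and 0.467 ± 0.318 CPM. Higher in dKO were LHX5 (9.11 ± 5.42 and 39.5 ± 1.46 CPM), ZIC1 (191 ± 7.35 and 484 ± 4.54 CPM) and CACNA2D2 (31 ± 4.29 and 94.1 ± 7.91 CPM). RELN had 181 and 182 CPM in these WT samples and 114 and 121 CPM in the dKO samples.

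Progenitor markers (10 genes, led by VIM, NES and FABP7) summed to 4050 to 4740 CPM at day 28 in both genotypes and to 5650 to 8070 CPM in NPCs, with most of the sum from VIM. Single genes of that list differed at day 28 in the direction of RELN. PROM1, a membrane protein of progenitors, had 2.84 and 2.98 CPM in WT-D28 against 74.2 and 108 CPM in dKO-D28 (log2 fold change 4.96 ± 0.21, adjusted p = 3.64e-11), and PAX6, a transcription factor of radial glia, 11.7 and 11.5 CPM against 187 and 351 CPM (4.53 ± 0.281, adjusted p = 4.1e-07). MKI67, a proliferation marker, had 112 CPM in WT-D28 and 483 CPM in dKO-D28 as group means (2.12 ± 0.138, adjusted p = 3.63e-09). FABP7, a radial glial lipid carrier, was lower (-1.94 ± 0.539, adjusted p = 0.0215), and the other 5 tested genes of the list were not called. Markers of mesenchyme and neural crest (10 genes, led by COL1A1, COL1A2 and COL3A1) summed to 874 and 1040 CPM in dKO NPCs at passage 2 and 1730 and 1750 CPM at passage 4, against 159 to 388 CPM in all WT samples and 406 and 300 CPM in dKO-D28. At day 28 all 6 tested genes of this list were called, 4 higher and 2 lower in dKO, beside 24.2% of all tested genes. COL3A1 had 53.2 ± 2.41 CPM in WT-D28 and 12.8 ± 7.88 CPM in dKO-D28, and PDGFRB 94.7 ± 4.29 and 27.4 ± 15.6 CPM (SD, n = 2). The part of these markers in the pathway genes' values was not tested.

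**Figure D5:**
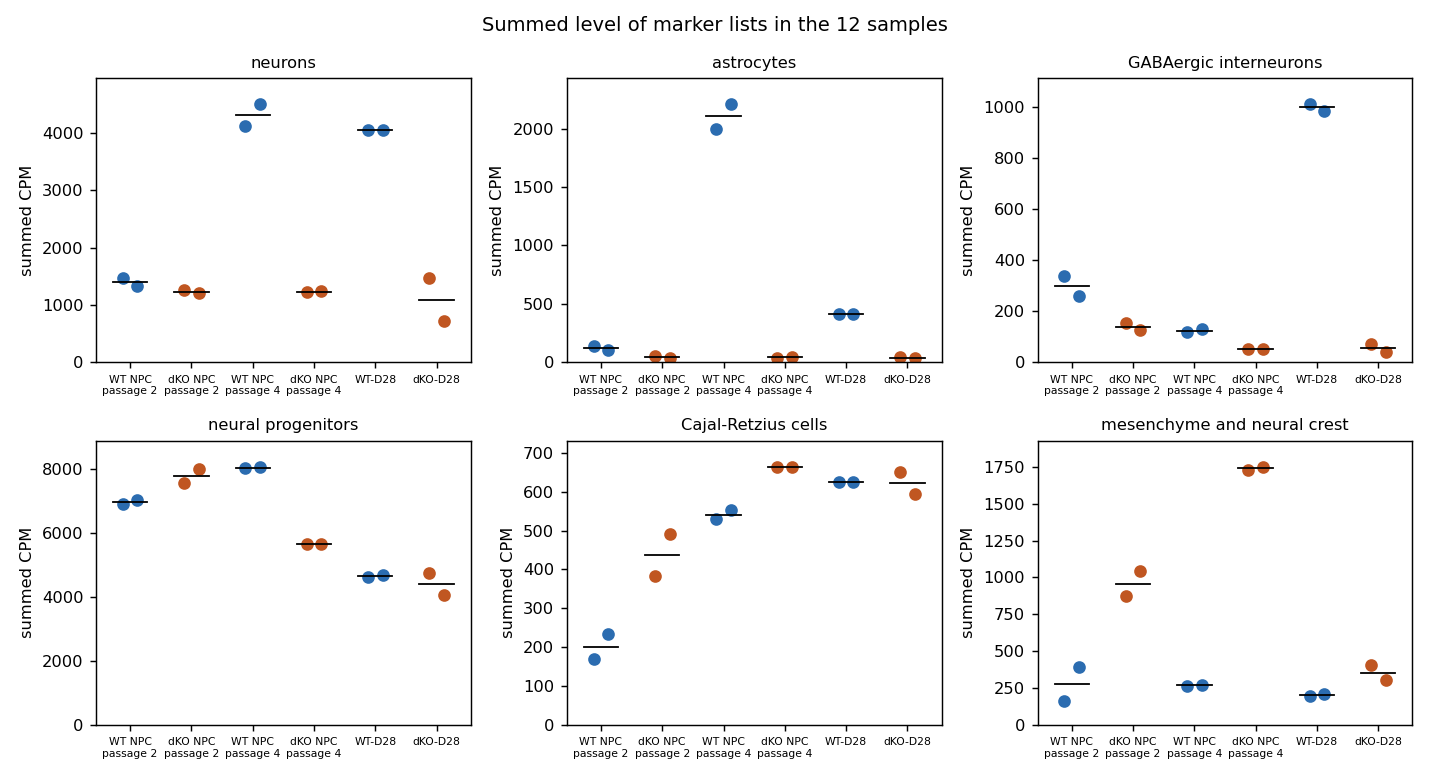
Summed CPM of 6 marker lists in the 12 samples, by group, on axes that start at 0. Points are samples (blue WT, orange dKO) and lines are means of 2 samples. Neuronal markers are highest in WT NPCs at passage 4 (4130 and 4510 CPM) and WT-D28 (4050 and 4060 CPM), and GABAergic markers in WT-D28 (1010 and 985 CPM).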

How the data were processed

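Raw counts per Ensembl gene were deposited by the authors for 12 samples. Reads of TruSeq libraries had been mapped to hg38 with HISAT2 2.0.4, sorted with SAMtools 1.3.1 and counted with HTSeq 0.6.0, per the submitters' processing notes and the study's methods. The annotation release and strand setting of the counting are not given in the sources used here. Groups came from the labels.

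GENCODE v44 gave symbols, coordinates and exonic lengths for 57532 of the 58302 genes (98.7%). In R 4.3.3, counts were TMM-normalized and tested with edgeR 4.0.16 (robust quasi-likelihood test) in 1 fit of 6 group means, for the 13454 genes that averaged 20 counts or more per sample. Benjamini-Hochberg adjustment ran over all tested genes. The standard error is the log2 fold change divided by the square root of F. The fit was tested on simulated data.

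The pathway genes, partner lists and markers were chosen with earlier results of these data known. Partners named are those with a fixed place in the pathway and, per list, the called genes with the 3 largest log2 fold changes. For each marker list they are the 3 most abundant genes, and for each pathway gene the 3 with the highest r. ADAMTS3, MYLIP, NDE1, MAPT, MKI67, PROM1, PAX6, NDNF and further Cajal-Retzius markers were named after their values were seen. Other partners are given by counts only, and 1 gene that the rule names is not reported here. Alternatives were DESeq2 1.42.0, adjusted calls, a fit of the compared groups only, other count filters, a GC and length correction, the replicate block and leaving out each sample.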

Additional observations from a re-analysis of the deposited data

Results flagged for a closer look

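The values here are differences of log2 fold changes, dKO minus WT, between day 28 and passage 2 or between passage 4 and passage 2. They are listed because the effect of genotype differed between the 2 times, by a contrast of the edgeR fit for the partners. For the pathway genes every sample moved one way in WT and the other way in dKO, and the difference is given without a test (it was not tested here) because the genes were chosen by these values. Of all tested genes, 23.2% pass the contrast in differentiation and 19.3% that in passaging, at an unadjusted p below 0.05 and 2-fold. The partners listed as passing also had an adjusted p below 0.05, so these shares are not on the same footing. Many partners were named because they were called in comparisons of these same groups, so nothing is read from how many passed.

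In differentiation, the untested differences were 5.19 for RELN and -1.9 for LRP8. Of the 29 partners named by the fixed rule, 13 passed. Higher values belonged to the receptors LRP4 (5.09) and LRP2 (2.05), the proteases ADAMTS2 (4.93) and PLAT (1.83), the adhesion gene ITGA5 (3.79) and the ligand THBS1 (1.21). Lower values belonged to GRIN2B (-8.38), CAMK2A (-4.59), LRP1B (-2.72), DCX (-1.67), CDK5R1 (-1.59), CLU (-1.39) and SRC (-1.33). GRIN2B had 1 to 4 counts per sample at passage 2, so the size of its value is not interpretable.

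In passaging, the untested differences were -2.12 for DAB1, -2.56 for LRP8 and -1.04 for VLDLR. Of the 29 partners, 14 passed. Higher values belonged to ITGA5 (2.6), APOE (2.59), ADAMTS2 (2.24), LRP2 (2.09) and THBS1 (1.2). Lower values belonged to GRIN2B (-5.5), DCX (-3.07), LRP1B (-2.98), GRIN2A (-2.48), CLU (-2.23), CDK5R1 (-2.07), CAMK2A (-1.91), PLAT (-1.69) and FYN (-1.31). PLAT thus had opposite signs in the 2 contrasts.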

How the results depend on the processing

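No called difference that was recomputed changed sign under the alternatives run. A fit without 1 of the 2 samples of a group can hardly move by more than the spread between replicates. Nothing is therefore read from how many values stayed within that spread. Of the recomputed log2 fold changes of the pathway genes, 410 moved by less than the spread between replicates and 18 by more. With the GC and length correction, alone or with the replicate block, the values were at passage 4 -0.34 for RELN, -1.89 for DAB1, -2.45 for LRP8 and -0.67 for VLDLR, in WT differentiation 0.83 for LRP8 and 1.6 for VLDLR, for VLDLR in WT passaging 0.49, and for RELN in the difference of passaging -0.17. VLDLR in WT differentiation was 1.75 for genes counted in any sample and 1.7 under a minimum of 10 counts per sample. Deviations of same-numbered samples had correlations of -0.055 to 0.182 over 15 group pairs, so the numbers do not show a pairing. The replicate block alone changed no count of called partners (6, 23 and 27 in the comparisons of genotypes).

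Called partners at passage 2 numbered 2 at an adjusted p below 0.05 and 3 to 9 when a sample was left out. Under that minimum of 10 counts, 56 partners and 9967 genes in all could be tested, and 3 partners were called at passage 2, 13 at passage 4, 17 at day 28, 12 in WT differentiation, 5 in dKO differentiation and 14 in the difference of differentiation. In the comparisons of genotypes these are 5.36%, 23.2% and 30.4% of the partners beside 2%, 16.6% and 18.9% of all genes tested so. Among named partners, 18 recomputed values lost a call and 1 gained it, mostly at passage 2, where totals were lowest. CDK5 gained it at passage 2 without WT NPC sample 2 (-1.25). The cause was not tested. With 1 sample left in a group, that sample is assumed to vary like the other groups.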
